A study of Rattus norvegicus with 4 samples.

Results

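The 8 genes described here encode structural proteins of compact and noncompact peripheral myelin: Mbp, Pmp22, Mal and Pllp for the compact sheath, and Mag, Gjb1, Prx and Cnp for its noncompact regions. They were taken by gene symbol from a named list that uses no threshold on their values but was drawn up with earlier results of these data known, and all 8 were found among 17949 genes counted by RNA-seq and passed the filter on low counts with 12446 genes in all. The RNA came from primary rat Schwann cells (SCs) of the sciatic nerve, the glia that wrap peripheral axons. They were grown in medium with 10% serum, 4 µM forskolin, which raises cyclic AMP, and 5 ng/ml heregulin-β1, a ligand of the ErbB receptors, in both groups. The Lenti-AS group (n = 2) was infected with a lentivirus that expresses the Egr2-AS, an RNA antisense to the promoter of the myelin regulator Egr2, and the Lenti-GFP group (n = 2) with a control virus that carries a green fluorescent protein. Infection was at 2 UFC per cell for 48 h in both groups. The Egr2-AS vector carries a red fluorescent reporter instead, so the reporter and the antisense RNA cannot be told apart. The labels call the samples biological replicates but name no separate animals or cultures, so p-values measure the spread between these samples only. The comparison asks whether genes for myelin proteins differ in level between SCs that express the Egr2-AS and control SCs, all in a culture whose labels name no axons.

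In a compact myelin sheath the membrane layers are held together by MBP on their cytoplasmic faces and by membrane proteins such as PMP22. Noncompact regions (the paranodal loops, the Schmidt-Lanterman incisures and the innermost and outermost turns) keep cytoplasm, and hold adhesion proteins, gap junctions and scaffold proteins. The transcription factors EGR2 and SOX10 are known to activate many of these genes as SCs begin to myelinate, and injury of the nerve lowers their expression. Changes in the human genes for PMP22, the gap junction protein GJB1 and periaxin cause inherited neuropathies of the Charcot-Marie-Tooth group.

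To show the regions at the starts of these genes, upstream windows of 250 bases were taken from RefSeq on the GRCr8 assembly, which is not the rn6 assembly of the counts. All 8 genes matched, with 9 windows, since Mbp has 2 starts. The windows of Mal and Gjb1, which passed the test below, and of Mag and Cnp, which hold matches to known regulator motifs, are printed. They run 5′ to 3′ and end at the base before the RefSeq start. The windows of Mbp, which also passed the test and has matches at its second start, are not printed. Capitals mark matches on either strand to the EGR core GCGTGGG or to a SOX core, ACAATG or ACAAAG. The Mal window is chr3:135341424-135341673, minus strand, the Gjb1 window is chrX:70541595-70541844, plus strand, the Mag window is chr1:95291045-95291294, minus strand, and the Cnp window is chr10:86011254-86011503, plus strand.
Mal: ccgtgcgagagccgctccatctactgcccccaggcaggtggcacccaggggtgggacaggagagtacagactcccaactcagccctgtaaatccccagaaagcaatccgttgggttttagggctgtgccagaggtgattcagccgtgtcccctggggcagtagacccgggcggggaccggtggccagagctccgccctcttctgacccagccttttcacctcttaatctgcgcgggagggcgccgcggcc
Gjb1: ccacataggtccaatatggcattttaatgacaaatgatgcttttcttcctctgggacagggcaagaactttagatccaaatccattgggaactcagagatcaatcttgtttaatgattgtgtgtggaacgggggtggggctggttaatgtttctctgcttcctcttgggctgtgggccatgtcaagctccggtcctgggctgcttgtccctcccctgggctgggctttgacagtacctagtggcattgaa
Mag: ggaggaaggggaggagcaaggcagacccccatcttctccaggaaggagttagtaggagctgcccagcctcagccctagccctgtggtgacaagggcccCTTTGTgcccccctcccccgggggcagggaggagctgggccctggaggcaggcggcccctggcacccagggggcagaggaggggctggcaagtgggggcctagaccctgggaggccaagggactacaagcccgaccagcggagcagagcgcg
Cnp: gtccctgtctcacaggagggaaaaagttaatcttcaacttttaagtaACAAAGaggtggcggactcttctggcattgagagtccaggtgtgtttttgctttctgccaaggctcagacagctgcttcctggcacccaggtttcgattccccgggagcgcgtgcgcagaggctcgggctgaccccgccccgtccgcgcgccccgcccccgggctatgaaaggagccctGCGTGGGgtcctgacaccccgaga

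An EGR core was present in 1 of the 9 windows, that of Cnp, 24 to 18 bases before the start, and in 3.68% of the 33469 windows of all genes. A SOX core was present in 3 of the 9, those of Cnp, Mag and the second Mbp start, and in 25.3% of all windows. The TATA core TATAAA was in none of the 9 windows, against 12.9% of all. The window of the second Mbp start held 3 SOX cores, while the Mal and Gjb1 windows held no match to any of these letters. The windows had GC contents from 48.0% for Pmp22 to 70.0% for Mag, where the median of all windows was 51.2%. A match is a description of the letters and not evidence of binding.

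Counts summed to 74024323 to 96185890 per sample. Lenti-AS 2 had 225613 counts on 5 globin genes (0.305% of its total) against 293 to 579 in the other samples. Levels are in CPM, counts per 1000000 counts of a library size scaled by edgeR's TMM method. The controls were more alike than the Lenti-AS pair, with 9 against 188 of 10251 genes (those averaging 1 CPM or more) over 2-fold apart within the pair. The Egr2-AS has no row in the table, so the labels could not be checked by its level. Without lengths of the counted transcripts, levels were compared between samples and not between genes.

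A gene was called where edgeR's quasi-likelihood fit gave at least a 1.3-fold difference with p under 0.05 after adjustment over all genes. Of the 8 genes, 3 were called higher in Lenti-AS (Mbp, Mal and Gjb1) and 0 lower, where 1.31% of all genes tested were called higher, 0.667% lower and 1.98% in either direction. The same 3 of 8 had an adjusted p under 0.05 at any fold, which 2.18% of all genes had. Their fitted log2 fold changes were between 0.47 and 0.68. In all 8 genes both Lenti-AS samples lay on one side of both Lenti-GFP samples, 6 above and 2 below, where 54.9% of all genes tested had groups that did not overlap, 27.7% above and 27.2% below. With no adjustment, 7 of the 8 had p under 0.05, against 21.8% of all genes. The median log2 fold change was 0.34 over the 8 genes and 0.0071 over all genes tested, and the median of its size regardless of sign was 0.41 over the 8 and 0.15 over all. An exact permutation test of 2 samples against 2 gives a two-sided p of 0.333 for each of the 8 genes, the smallest this design allows. In bulk RNA, fewer cells of a type and less RNA per cell cannot be told apart.

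**Figure D1:**
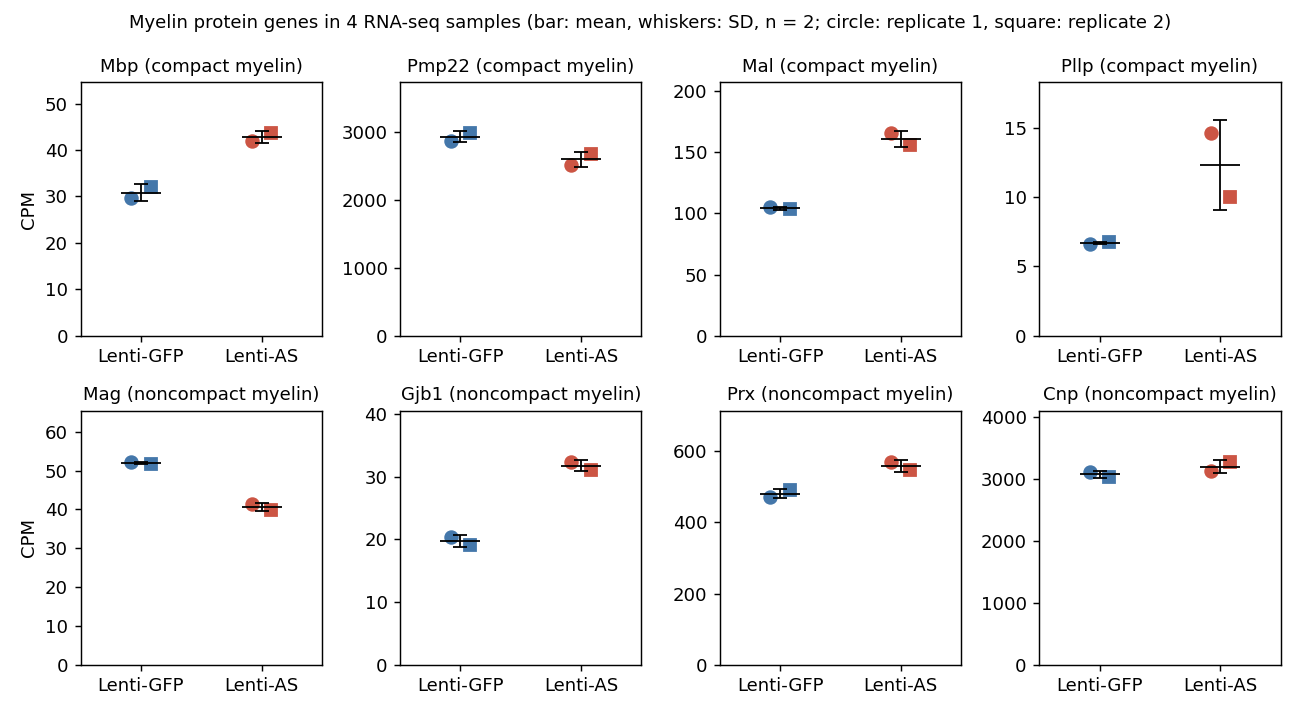
CPM (vertical axes, starting at 0) of the 8 genes in the Lenti-GFP (blue) and Lenti-AS (red) samples, with the mean and SD of each pair (n = 2); circles are replicate 1 and squares replicate 2. The groups do not overlap in any of the 8 panels, with Pmp22 and Mag lower and the other 6 genes higher in Lenti-AS, but in Cnp they are 11.0 CPM apart, less than the 150 CPM between the Lenti-AS samples.

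Among the genes of compact myelin, Mbp encodes myelin basic protein, which draws the cytoplasmic faces of the membrane together. The controls held Mbp at 29.6 and 32.1 CPM and the Lenti-AS pair at 42.0 and 43.6 CPM, from 2760 to 3677 counts. The nearest samples of the groups were 9.87 CPM apart, while replicates differed by 2.52 CPM in the controls and 1.69 CPM in Lenti-AS. Mbp rose from 30.8 ± 1.78 CPM to 42.8 ± 1.20 CPM (SD, n = 2 each), a log2 fold change of 0.47 with a 95% interval of 0.29 to 0.65 and a standard error of 0.0733 (edgeR, adjusted p = 0.0428). The lower bound of this interval is a fold of 1.23, under the 1.3 used to call genes. One count covers all transcripts of Mbp.

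Mal encodes a small membrane protein of lipid-rich domains that takes part in the sorting of myelin proteins. Its level was 105 and 103 CPM with the control virus, and 166 and 156 CPM with the Egr2-AS. The gap of 51.1 CPM between the groups was 5.40 times the larger of the gaps between replicates. Mal rose from 104 ± 1.29 CPM to 161 ± 6.70 CPM (SD, n = 2 each), a log2 fold change of 0.63 with a 95% interval of 0.49 to 0.77 and a standard error of 0.0573 (edgeR, adjusted p = 0.0191). This was the smallest adjusted p of the 8 genes.

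Pllp encodes plasmolipin, a membrane protein of the same family as MAL. Its counts of 619 and 637 in the controls and 1280 and 752 in Lenti-AS gave 6.63, 6.72, 14.6 and 10.0 CPM, in that order. The groups were apart by 3.28 CPM, but the Lenti-AS replicates differed by more, 4.60 CPM. Counting error was 4.02% for the smallest count, that of Lenti-GFP 1, while the coefficient of variation in Lenti-AS was 26.4%. The log2 fold change of 0.88 was the largest of the 8 and had the widest error (95% interval 0.42 to 1.35, standard error 0.19, edgeR adjusted p = 0.0797), so Pllp did not pass. Without Lenti-AS 1 its log2 fold change was 0.58, and without Lenti-AS 2 it was 1.13. Leaving out Lenti-GFP 1 or Lenti-GFP 2 gave 0.88 or 0.89. Each of these fits has 1 residual degree of freedom.

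Pmp22, whose protein spans the membranes of compact myelin, lay in the other direction. The controls were at 2871 and 2982 CPM, above the 2518 and 2675 CPM of the Lenti-AS pair. The groups were 196 CPM apart, a little more than the 157 CPM within the Lenti-AS pair. With a log2 fold change of -0.17 (95% interval -0.32 to -0.0273, standard error 0.0593), Pmp22 did not pass (edgeR, adjusted p = 0.176). The level in Lenti-AS was 0.887 times that in Lenti-GFP, and the interval of this ratio was 0.802 to 0.981. Fits that left out 1 sample gave Pmp22 log2 fold changes of -0.22 to -0.13, all short of a 1.3-fold change.

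Among the genes of noncompact myelin, Gjb1 encodes a connexin whose gap junctions join the cytoplasm of neighbouring turns at incisures and paranodes. From 1809 to 2836 counts, the controls were at 20.4 and 19.1 CPM and the Lenti-AS pair at 32.4 and 31.1 CPM. The gap of 10.7 CPM between the groups was 8.02 times the larger gap between replicates, the highest such ratio of the 8 genes. Gjb1 rose from 19.8 ± 0.942 CPM to 31.7 ± 0.889 CPM (SD, n = 2 each), a log2 fold change of 0.68 with a 95% interval of 0.51 to 0.86 and a standard error of 0.0700 (edgeR, adjusted p = 0.0218).

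Mag encodes a sialic acid-binding adhesion protein of the membrane that faces the axon. Levels of 52.2 and 51.8 CPM in the controls stood against 41.4 and 40.0 CPM in Lenti-AS. The groups were 10.4 CPM apart, 7.39 times the larger gap between replicates. Mag missed both cut-offs, with a log2 fold change of -0.35 (95% interval -0.52 to -0.19, standard error 0.0657, edgeR adjusted p = 0.0594). Over the fits that left out 1 sample, its log2 fold change ranged from -0.38 without Lenti-AS 1 to -0.33 without Lenti-AS 2.

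Prx encodes periaxin, a scaffold protein of the SC plasma membrane that links it to the dystroglycan complex. The Lenti-AS pair, at 570 and 547 CPM, stood above the controls at 471 and 490.0 CPM. The gap of 57.2 CPM between the groups was 2.52 times the larger gap between replicates. On the log2 scale Prx differed by 0.22 (95% interval 0.0831 to 0.35, standard error 0.0544) and did not pass (edgeR, adjusted p = 0.106). Over the fits that left out 1 sample, its log2 fold change was 0.19 to 0.25, short of a 1.3-fold change.

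Cnp encodes a cyclic nucleotide phosphodiesterase that keeps cytoplasmic channels in myelin open. Its levels were 3111 and 3029 CPM in the controls, and 3122 and 3272 CPM in Lenti-AS. The groups were 11.0 CPM apart, which is 0.0734 of the larger gap between replicates. Cnp differed by 0.0584 on the log2 scale (standard error 0.0563, edgeR adjusted p = 0.576). Its 95% interval, -0.0796 to 0.20, covers ratios from 0.946 to 1.15, so a change of 1.3-fold lies outside it.

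**Figure D2:**
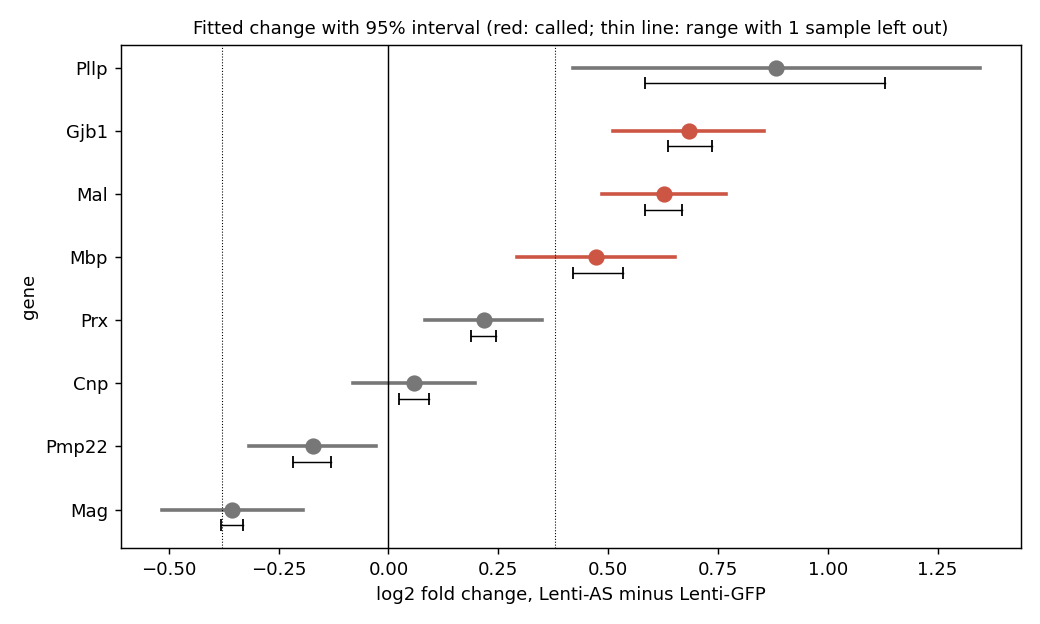
Fitted log2 fold change, Lenti-AS minus Lenti-GFP (horizontal axis), of the 8 genes with the 95% interval of edgeR's quasi-likelihood fit, red for called genes; dotted lines mark a 1.3-fold change in either direction, and thin black lines the range over the fits that each leave out 1 sample. Mbp, Mal and Gjb1 lie between 0.47 and 0.68, Pllp has the widest interval, the interval of Cnp includes 0, and Pmp22 and Mag lie below 0.

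Without either control sample edgeR called 0 genes higher and 1 lower of all 12446, so Mbp, Mal and Gjb1 were not called either, while their fold changes stayed about as large. Without Lenti-GFP 1 the log2 fold changes were 0.42, 0.64 and 0.74 (edgeR, adjusted p = 0.354, 0.261 and 0.196), and without Lenti-GFP 2 they were 0.53, 0.62 and 0.64 (adjusted p = 0.337, 0.295 and 0.268). Without Lenti-AS 1 they were 0.50, 0.58 and 0.66 (adjusted p = 1.48e-05, 2.23e-08 and 1.71e-06), and without Lenti-AS 2, the sample with the globin counts, 0.44, 0.67 and 0.71 (adjusted p = 5.24e-05, 2.65e-10 and 1.12e-07). In those fits the spread comes from the remaining pair and the lone sample is assumed to vary like it. DESeq2 called the same 3 genes and also Pllp (adjusted p = 0.000705), and gave adjusted p-values of 0.000376 for Mag and 0.0121 for Prx, both below a 1.3-fold change.

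The 8 genes did not share one direction. The 4 genes of compact myelin had log2 fold changes from -0.17 to 0.88 with a median of 0.55, and the 4 of noncompact myelin from -0.35 to 0.68 with a median of 0.14. Each set held genes on both sides of 0, with Pmp22 and Mag the genes below it. To compare the genes within a sample, free of library scaling, counts were set against those of Pmp22, a compact myelin gene with at least 201051 counts in every sample.

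Per 1000 Pmp22 counts there were 7.11 and 6.40 Gjb1 counts in the Lenti-GFP samples, and 12.9 and 11.6 in the Lenti-AS samples. There were 36.6 and 34.7 Mal counts in Lenti-GFP, and 65.8 and 58.4 in Lenti-AS. There were 10.3 and 10.8 Mbp counts in Lenti-GFP, and 16.7 and 16.3 in Lenti-AS. In each of these the groups were separate, and the ratio of the group means was 1.81 for Gjb1, 1.74 for Mal and 1.57 for Mbp. For Mag it was 0.882, with 18.2 and 17.4 counts per 1000 Pmp22 counts in Lenti-GFP, and 16.4 and 14.9 in Lenti-AS. The ratios of group means for Pllp, Prx and Cnp were 2.09, 1.31 and 1.17. Since both Lenti-AS samples had lower Pmp22 levels than the controls, these ratios are higher than the folds in CPM. They describe unequal levels and were not tested.

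**Figure D3:**
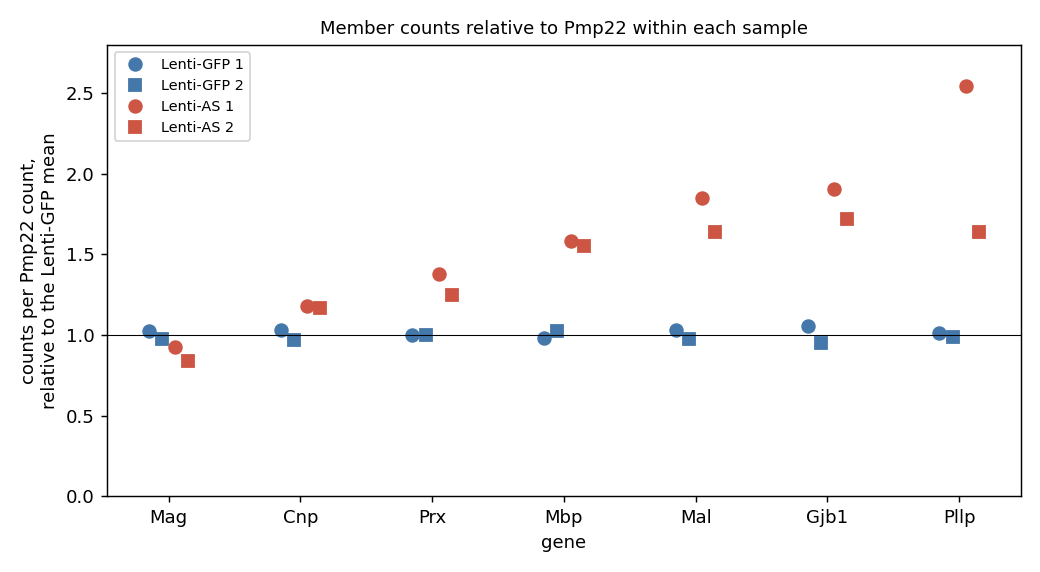
Counts of 7 genes per Pmp22 count in each sample (vertical axis, linear from 0), relative to the mean of the Lenti-GFP samples; blue is Lenti-GFP, red Lenti-AS, circles replicate 1 and squares replicate 2. Both Lenti-AS samples are above both Lenti-GFP samples for 6 genes and below them for Mag, and Pllp shows the widest distance between the Lenti-AS samples.

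Beside these 8, lists of other myelin genes were examined. Of 25 other genes for myelin proteins and enzymes, 24 had a row and 22 were tested, of which 1 was called higher and 2 lower, where 1.98% of all genes were called in either direction. In 17 of the 22 the groups did not overlap, 9 with Lenti-AS higher and 8 with Lenti-AS lower, against 54.9% of all genes, 27.7% higher and 27.2% lower, and the median log2 fold change of the 22 was 0.0942. By list, 0 were called higher and 1 lower of 4 for other compact proteins, 1 and 1 of 9 for other noncompact proteins (median 0.11), and 0 and 0 of 9 for enzymes and cytoskeletal proteins (median 0.17). The gene called higher was Cdh1, which encodes the E-cadherin of noncompact myelin junctions, at 19.1 and 19.0 CPM in the controls, and 26.5 and 29.9 CPM in Lenti-AS (edgeR, log2 fold change 0.57 ± 0.0815 standard error, adjusted p = 0.0389). Cd82, which encodes a tetraspanin membrane protein, fell from 632 and 626 CPM to 453 and 463 CPM (log2 fold change -0.46 ± 0.0503 standard error, edgeR adjusted p = 0.0241). Mpp6, which encodes a membrane-associated guanylate kinase-like scaffold protein, fell from 70.5 and 69.7 CPM to 49.6 and 53.9 CPM (log2 fold change -0.44 ± 0.0741 standard error, edgeR adjusted p = 0.0499), a call that was lost with unscaled library totals (adjusted p = 0.0617). Without Lenti-GFP 1 the log2 fold changes of Cdh1, Cd82 and Mpp6 were 0.57, -0.45 and -0.43 (edgeR, adjusted p = 0.326, 0.284 and 0.385), and without Lenti-GFP 2 they were 0.57, -0.46 and -0.45 (adjusted p = 0.428, 0.297 and 0.502), in the fits that call 0 genes higher and 1 lower over all.

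Among the 4 other compact myelin genes tested, only Cd82 was called. The values of Pmp2, for a fatty acid-binding protein, overlapped between the groups, at 1166 and 1199 CPM in the controls, and 1273 and 1198 CPM in Lenti-AS (edgeR, adjusted p = 0.552). Lenti-AS was below the controls without overlap for the other 3, Cd82 among them, as it was for 27.2% of all genes tested. The median log2 fold change of the 4 was -0.22.

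Of 15 regulators of myelin genes tested, 1 was called higher and 0 lower, where 1.31% of all genes tested were called higher and 0.667% lower. In 7 of the 15 the groups did not overlap, 5 with Lenti-AS higher and 2 lower, against 54.9% of all genes, 27.7% higher and 27.2% lower. Pou3f1, a POU factor of promyelinating SCs, rose from 69.2 and 65.6 CPM to 101 and 89.2 CPM (log2 fold change 0.50 ± 0.0821 standard error, edgeR adjusted p = 0.0481). In the same fits without Lenti-GFP 1 or Lenti-GFP 2, its log2 fold change was 0.54 or 0.46 and it was not called (edgeR, adjusted p = 0.360 and 0.533). Egr2, whose promoter the antisense RNA is complementary to, was at 49.2 and 42.1 CPM in the controls, and 61.2 and 54.0 CPM in Lenti-AS. Egr2 did not pass, with a log2 fold change of 0.33 ± 0.11 standard error (edgeR, adjusted p = 0.152). Its groups did not overlap, and DESeq2 gave an adjusted p of 0.0336, below a 1.3-fold change. Leaving out Lenti-AS 1 or Lenti-AS 2 gave 0.24 or 0.42 for Egr2, and leaving out Lenti-GFP 1 or Lenti-GFP 2 gave 0.45 or 0.23. Sox10 was at 77.1 and 72.6 CPM in the controls, and 163 and 61.2 CPM in Lenti-AS, so its Lenti-AS samples lay on both sides of the controls (edgeR, adjusted p = 0.440). No source used here names the strand setting of the counting, so reads of the Egr2 gene and of an antisense transcript over its exons cannot be told apart. The median log2 fold change of the 15 was 0.12.

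**Figure D4:**
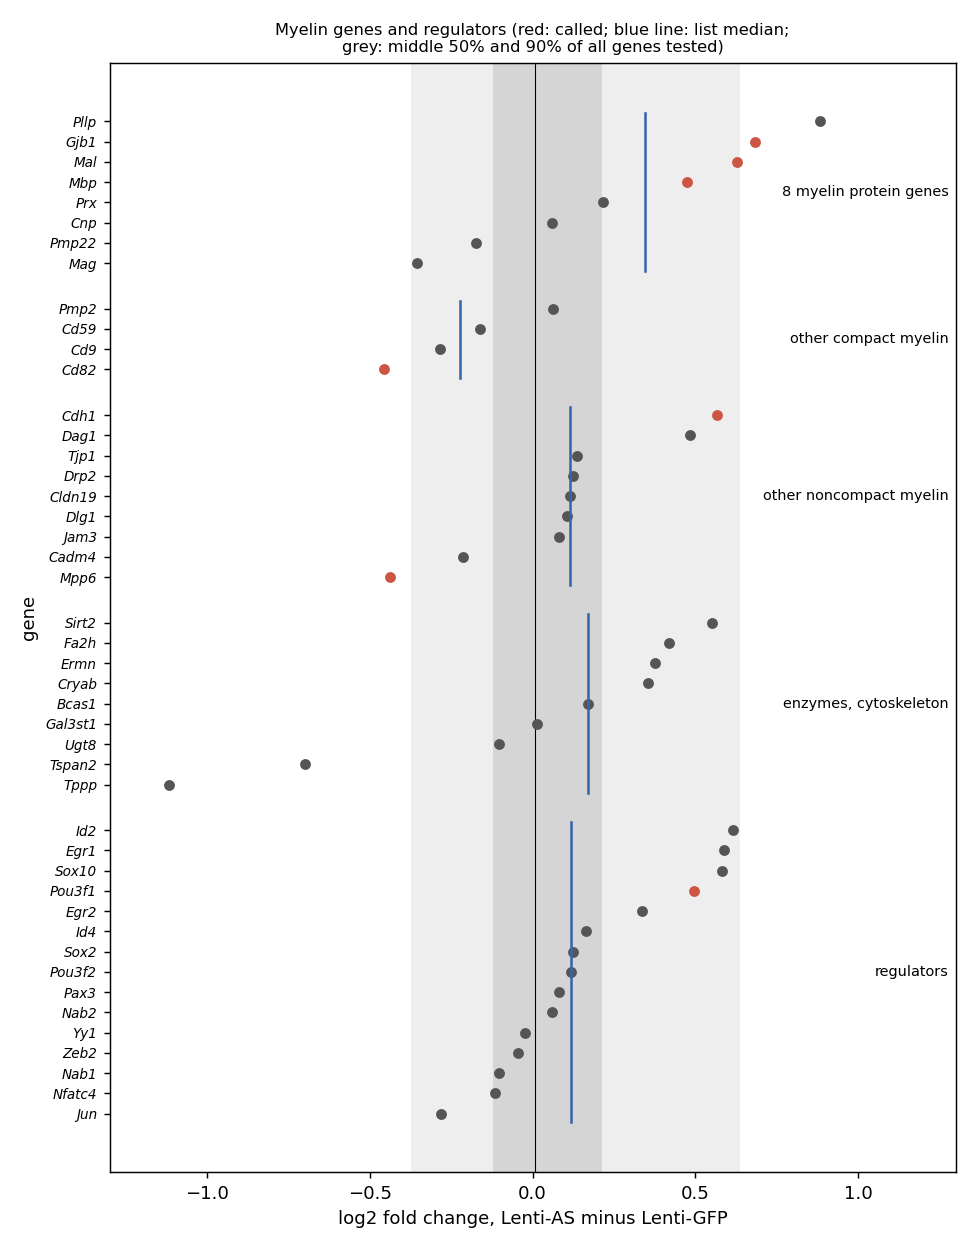
Fitted log2 fold change, Lenti-AS minus Lenti-GFP (horizontal axis), of the 8 genes and of 4 lists of other myelin genes and regulators, 1 point per gene, red where called; the blue lines are list medians and the grey bands the middle 50% (-0.12 to 0.21) and 90% (-0.37 to 0.63) of all genes tested. Pllp and Gjb1 lie above the 90% band, and the red points outside the 8 genes are Cdh1 and Pou3f1 above 0 and Cd82 and Mpp6 below it.

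The labelled cell type was checked by its markers. Of 10 SC markers 9 had a row, and 8 of these were above 1 CPM, S100b, Sox10, Ngfr and Erbb3 among them, while Gap43 was at 0.264 CPM or less. The summed SC markers were 9445 to 9606 CPM in Lenti-GFP and 9094 to 9611 CPM in Lenti-AS. Of the 9 SC markers 0 were called, where 1.98% of all genes tested were called in either direction. The sum covers markers that lay in both directions, and Cadm4 alone was 4265 to 5483 CPM. In 8 of the 9 the groups did not overlap, against 54.9% of all genes tested. Of these, 5 were higher in Lenti-AS, S100b, Ngfr and Erbb3 among them, against 27.7% of all genes. The other 3 (Cadm4, Cdh19 and Gap43) were lower, against 27.2% of all genes. Oligodendrocytes also express Mbp, Mag and Cnp. Of their 8 markers, 5 (Mobp, Opalin, Olig1, Olig2 and Hapln2) were under 1 CPM in all samples. Myrf was at 32.2 and 26.1 CPM in the controls, and 44.7 and 34.1 CPM in Lenti-AS. Cldn11 ranged from 6.98 to 9.46 CPM and Mog from 2.97 to 5.78 CPM. The sum was 40.2 to 44.7 CPM in Lenti-GFP and 46.3 to 58.4 CPM in Lenti-AS, which do not overlap. Of the 8 oligodendrocyte markers 6 were tested and 0 called. For fibroblasts Dcn, Lum, Thy1 and Dpt were under 1 CPM and were not tested, and 0 of the 6 markers tested were called. Other fibroblast markers were high, with Col3a1 at 3261 and 2955 CPM in the controls, and 2198 and 2400 CPM in Lenti-AS. Col1a1 was at 841 and 721 CPM in the controls, and 2131 and 290 CPM in Lenti-AS, on both sides of the controls. Col1a2 ranged from 120 to 340 CPM and Pdgfrb from 225 to 279 CPM. The fibroblast sum overlapped between the groups (4054 to 4526 CPM and 3098 to 4903 CPM).

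The sums of the neuron, satellite glia and melanocyte, macrophage, endothelial and red blood cell lists did not overlap between the groups. Among single genes tested, 54.9% did not overlap either. The 8 neuron markers summed to 249 to 265 CPM in Lenti-GFP and 193 to 196 CPM in Lenti-AS. Nefl was at 142 and 152 CPM in the controls, and 106 and 108 CPM in Lenti-AS. Nefm was at 107 and 112 CPM in the controls, and 86.4 and 88.1 CPM in Lenti-AS. Rbfox3, Snap25, Syt1, Nefh, Stmn2 and Elavl4 were under 1 CPM. Of the 4 neuron markers tested, Nefl was called lower, against 0.667% of all genes tested. For satellite glia and melanocytes 6 of 8 markers had a row, with sums of 1295 to 1302 CPM in Lenti-GFP and 1640 to 1760 CPM in Lenti-AS. Fabp7 and Tyr were under 1 CPM and were not tested. All 4 tested (Kcnj10, Glul, Mitf and Tyrp1) were higher in Lenti-AS without overlap, against 27.7% of all genes tested. Of these 4, Kcnj10 and Tyrp1 were called higher, against 1.31% of all genes tested. Most of the sum of this list was Tyrp1, at 1069 and 1061 CPM in the controls, and 1473 and 1338 CPM in Lenti-AS. The 8 macrophage markers summed to 3.29 to 3.36 CPM in Lenti-GFP and 3.95 to 4.34 CPM in Lenti-AS. Cd68 ranged from 1.18 to 1.84 CPM and Csf1r from 1.87 to 2.27 CPM, while Ptprc, Aif1, Itgam, Adgre1, C1qa and C1qb were under 1 CPM. The 7 endothelial markers summed to 25.1 to 25.3 CPM in Lenti-GFP and 18.7 to 19.8 CPM in Lenti-AS. Tek was at 19.8 and 20.2 CPM in the controls, and 15.3 and 14.7 CPM in Lenti-AS. Egfl7 ranged from 3.58 to 4.63 CPM, while Pecam1, Cdh5, Kdr, Emcn and Cldn5 were under 1 CPM. Of 8 red blood cell genes 7 had a row, and their sum was 4.13 to 5.02 CPM in Lenti-GFP, 7.37 CPM in Lenti-AS 1 and 3002 CPM in Lenti-AS 2, with 0 called. The part of these cell types in the myelin gene results was not tested.

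To place each gene among others, the 3 genes whose centred log2 CPM lay closest over the 4 samples were found among those averaging 10 CPM or more. For Mbp these were Pcdhga7, Mitf and Lhfpl2, with root mean square differences of 0.00858, 0.00965 and 0.0233 on the log2 scale. For Mal they were Tmem176b, Sncg and Npc1 (0.0169, 0.0242 and 0.0284), and for Gjb1 they were Sesn2, Tmem176b and Fancd2 (0.00930, 0.0256 and 0.0269). For Mag they were Arhgap29, Mageh1 and Arl1 (0.0112, 0.0127 and 0.0130), and for Pmp22 they were Lnx1, Rbm4 and Dock9 (0.00284, 0.00363 and 0.00504). Pllp had no neighbour within 0.0401, the distance of Nav2, followed by Fam53b and Nedd4l. The nearest to Prx were Ppdpf, Gsto1 and Mindy1 and to Cnp Gtf3a, Tmem198b and Ywhah, at 0.00615 or less. Tmem176b is thus near both Mal and Gjb1. With 4 samples close profiles are common, and 3.54% (Cnp) to 10.2% (Mag) of such genes correlated above 0.95 with a given gene.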

How the data were processed

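RNA-seq of 4 samples of rat SCs, 2 per group, was analysed. Paired-end reads (50 bp) were aligned by the authors to rn6 (hisat2 in the paper, GSNAP in the submitters' processing notes) and assigned to RefSeq genes with featureCounts, and the deposited values are raw counts without normalization. Versions, strand and multi-mapping settings are not given in the sources used here. The table holds 17949 genes and 1 repeated header row, which was dropped. Groups and replicates come from the sample titles and column names. The filter kept the 12446 genes that reach 10 counts in 2 or more samples, and edgeR 4.0.16 (R 4.3.3) compared the groups (TMM factors 0.986 to 1.02, glmQLFit and glmQLFTest, no replicate term), with Benjamini-Hochberg adjustment over all genes tested. Standard errors come from the F statistic, and 95% intervals from the t distribution with a median of 5.95 degrees of freedom. Of these, 2 are residual and the rest come from the spread of the other genes, which the fit shares between genes. Replicates differed by more than sampling noise (chi-square per gene 32.7 within Lenti-GFP and 105 within Lenti-AS, where 1 is repeated sampling). Alternatives were DESeq2 1.42.0, limma-voom (limma 3.58.1), the likelihood ratio test, a newer quasi-likelihood fit, other scalings and filters, a replicate block and leaving out each sample. Each test method (not each scaling, filter or block) was run on simulated counts with known changes. The 8 genes, the lists and the motifs were chosen with earlier results of these data known. Beside the 8 genes, the text names Egr2, called genes of the lists and, for each of the 8, the 3 nearest profiles. Pmp2, Sox10, the marker genes and the other genes named with a value were named after their values were seen. Some genes first placed in the lists are not reported here, and the counts, sums and medians of the lists leave them out. No genome was used; RefSeq windows and names are of GRCr8, and by GRCr8 names no gene that overlaps one of the 8 has a row in the table.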

Additional observations from a re-analysis of the deposited data

How the results depend on the processing

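Of the 8 myelin protein genes, 3 were called higher and 0 lower with edgeR's quasi-likelihood test. The same 3 were called with limma-voom, a newer quasi-likelihood fit, 3 other scalings, 2 other filters on low counts and without red blood cell genes, and DESeq2 and the likelihood ratio test called Pllp as well. None of the 8 genes, nor of the 5 others tested under the alternatives (Egr2, Cd82, Cdh1, Mpp6 and Pou3f1), changed direction. Leaving out 1 sample gave 0 to 4 of the 8 called higher and 0 to 1 lower, with the 0 called higher when either control was left out (0 higher and 1 lower over all genes) and Mag called lower without Lenti-AS 1 (570 and 271 over all genes). Over all genes, 163 were called higher and 83 lower, 488 and 139 by DESeq2, 374 and 147 by the likelihood ratio test, and 0 to 1266 and 1 to 271 with 1 sample left out. Over the other myelin genes and regulators, 2 higher and 2 lower became 4 higher by DESeq2, 1 lower with library totals, and 0 to 9 higher and 0 to 4 lower with 1 sample left out. The median log2 fold change of the 8 genes, 0.34, was 0.38 with library totals, which moved the median of all genes from 0.0071 to 0.0390, and 0.31 to 0.39 with 1 sample left out. The causes were not tested.

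Both groups number their samples 1 and 2, but deviations of same-numbered samples had a correlation of 0.0458, and nothing says that a number marks a shared culture. With the number as a replicate block, 0 of the 8 genes, 3 genes higher and 14 lower over all, and 0 of the other myelin genes in either direction were called (adjusted p = 0.0990 for Mbp, 0.0592 for Mal and 0.0680 for Gjb1, edgeR), in a fit with 1 residual degree of freedom. The depth, with 619 counts or more for each of the 8 genes in every sample, leaves counting errors of at most 4.02% in any sample. Counting error was above the spread between replicates in some genes, such as Mag in the controls (coefficient of variation 0.571% against a counting error of 1.82% for its smallest count), and below it in others.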
